A study of Mus musculus with 13 samples.

Results

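Bile acid synthesis and transport was followed through 10 genes in the livers of ethanol-fed mice. The 10 were chosen by name for their known roles, with earlier results of these data already known. They cover the enzymes of bile acid synthesis (Cyp7a1, Cyp8b1, Cyp27a1, Cyp7b1), conjugation (Slc27a5, Baat), nuclear receptor control (Nr1h4, Nr0b2), uptake from blood (Slc10a1) and export into bile (Abcb11). All 10 were among the 53392 genes of the count table, and 10 of 10 passed the filter on low counts that left 14317 genes for testing. A wider list of 55 bile acid genes in 8 roles, also chosen with earlier results known, holds the same 10. Of its genes, 50 were tested.

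RNA was sequenced from whole liver of 13 female mice, each a separate animal. The study asked what acid ceramidase made in hepatocytes does to the alcohol-fed liver. Every mouse was homozygous for Rosa26-loxP-stop-loxP-rtTA and for Albumin-Cre, so that the doxycycline-dependent activator rtTA was made where the albumin promoter had driven Cre, that is in hepatocytes. The ASAH+ mice also carried TRE-ASAH1, from which rtTA transcribes acid ceramidase when doxycycline (Dox) is given, and their ASAH− littermates lacked it. Mice were 8 to 14 weeks old and received a liquid diet with 28% of calories from ethanol (Etoh) for 4 weeks. The groups were ASAH− Etoh-Dox (4 mice) and ASAH+ Etoh-Dox (5 mice), both given Dox at 200 mg/l, and ASAH+ Etoh (4 mice), given no Dox. For ASAH+ mice the sample titles and the descriptions with induction labels disagree on Dox, each naming the reverse of the other, and the descriptions were followed here. The level of Asah1, in CPM (counts scaled to library size), was 49.4 ± 6.78 (SD, n = 4) in ASAH− Etoh-Dox, 12755 ± 2796 (SD, n = 5) in ASAH+ Etoh-Dox and 46.5 ± 1.70 (SD, n = 4) in ASAH+ Etoh. Among ASAH+ mice it ran from 9668 to 15935 CPM in those described as given Dox. It ran from 44.2 to 48.3 CPM in those described as given none, so Asah1 follows the descriptions and not the titles. No group went without ethanol, and no ASAH− group went without Dox. The design text gives 4 mice per group, and 5 were labelled as ASAH+ Etoh-Dox. Total counts ran from 17819486 to 35358711 per mouse, with a median of 24454043. The 6 hepatocyte markers summed to between 78709 and 128690 CPM in each mouse, with Alb the most abundant and none at 0, so the hepatocyte marker genes were present in all 13 livers.

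Bile acids are made from cholesterol in hepatocytes, by a classic route that opens with 7α-hydroxylation and an alternative route that opens with oxidation of the side chain. They are joined to taurine or glycine, pumped into bile across the canalicular membrane, reabsorbed in the ileum and taken up again from portal blood. In hepatocytes bile acids activate the nuclear receptor FXR, which raises the repressor SHP and the export pump, and synthesis is held back when the pool is full.

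Transcripts for 3 comparisons were set side by side. The transgene comparison took ASAH+ Etoh-Dox minus ASAH− Etoh-Dox and asks what the transgene does when all mice receive Dox. The induction comparison took ASAH+ Etoh-Dox minus ASAH+ Etoh, in which Dox itself and the ceramidase it induces cannot be told apart. The control comparison took ASAH− Etoh-Dox minus ASAH+ Etoh, in which neither group expressed the transgene and Dox cannot be told apart from genotype. The comparisons share groups, so their values below are not independent of each other.

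None of the 10 genes passed the threshold in any comparison, an adjusted p under 0.1 over all 14317 genes by edgeR (quasi-likelihood test, Benjamini-Hochberg adjustment). The same fit called 2 genes (0.0140% of those tested) in the transgene comparison, Asah1 and Sod1, and 0 of the 10, with 0 of the 10 at an unadjusted p under 0.05 against 2.86% of all genes. For the induction comparison it again called 2 genes (0.0140%), Asah1 and Sod1, and 0 of the 10, with 1 of the 10, Slc10a1, at an unadjusted p under 0.05 against 7.29% of all genes. In the control comparison the 2 genes called (0.0140%) were mt-Co3 and mt-Co2, and Slc10a1 was again the 1 of the 10 at an unadjusted p under 0.05 by edgeR, against 9.19% of all genes. DESeq2 called 0 of the 10 in the transgene comparison, against 0.0759% of the genes to which it gave an adjusted p. In the induction comparison it called Slc10a1, 1 of the 8 with an adjusted p, against 4.94% of all, and in the control comparison 0 of the 10 against 1.73%. Its own filter left 1982 genes with an adjusted p in the induction comparison, and 15808 and 8625 in the transgene and control comparisons. By limma-voom 0 of the 10 were called in each. A p that misses the threshold does not show that levels were equal. The spread between mice set how large a difference could be seen, and it differed widely among the 10 genes.

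**Figure D1:**
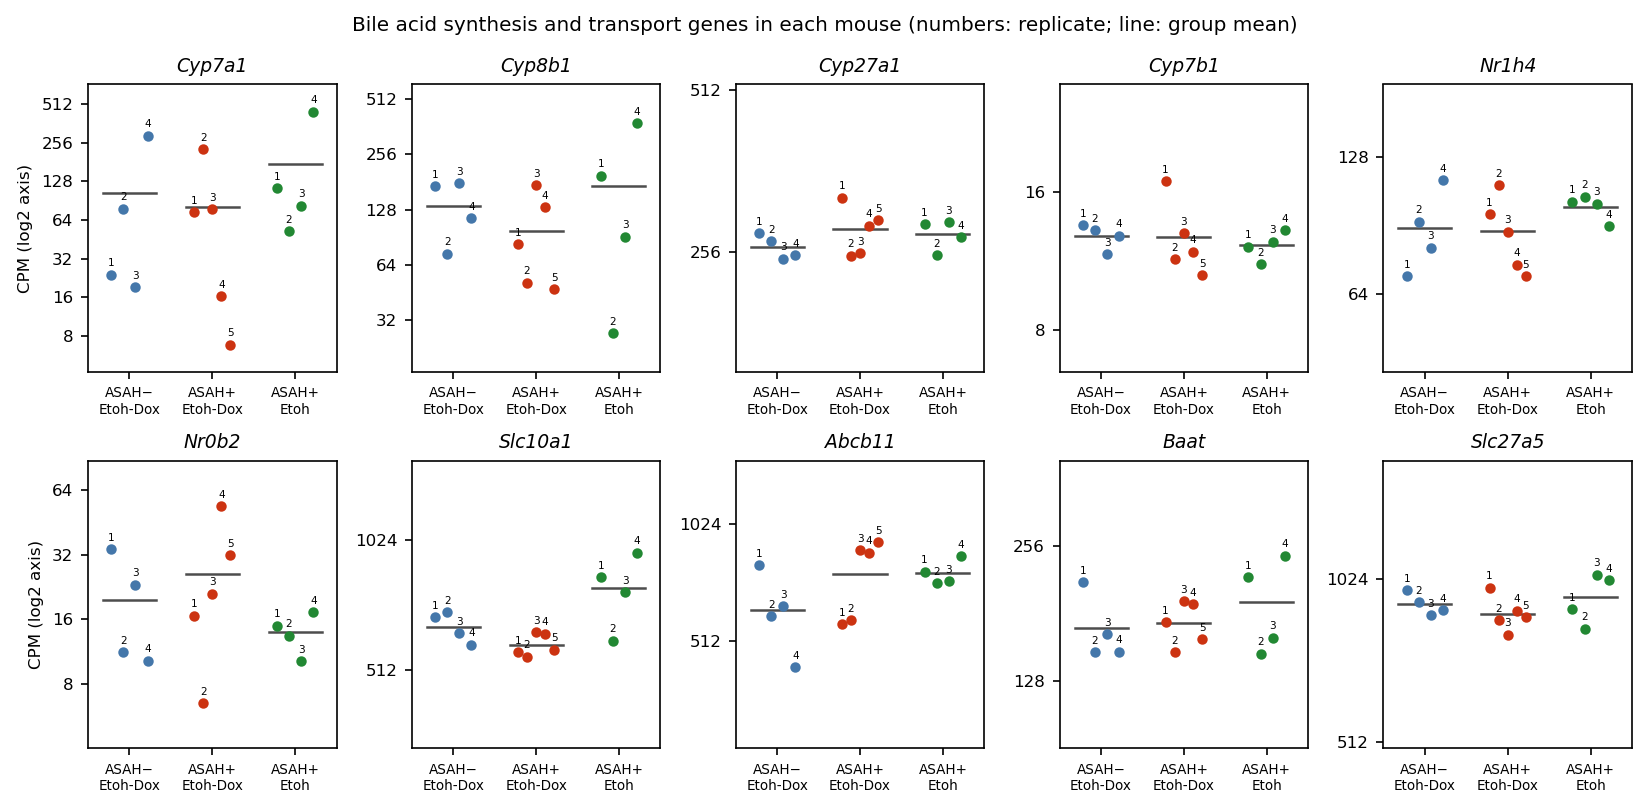
Level of each of the 10 genes (CPM, log2 axis) in 13 mice of 3 groups, each point a mouse with its replicate number and each line a group mean. Cyp7a1 ran from 6.85 to 448 CPM with all 3 groups overlapping, while Cyp27a1 ran only from 248 to 323 CPM.

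Cyp7a1, the rate-limiting enzyme of the classic route (ENSMUSG00000028240, chr4:6265612-6275633, minus strand, GRCm38), was the most uneven of the 10 genes. Its level was 24.0, 78.4, 19.1 and 291 CPM in the 4 ASAH− Etoh-Dox mice. The 5 ASAH+ Etoh-Dox mice had 74.0, 228, 77.9, 16.4 and 6.85 CPM. In the 4 ASAH+ Etoh mice it was 114, 52.4, 82.9 and 448 CPM. Each group held 1 mouse far above the rest, the lowest mouse of all belonged to ASAH+ Etoh-Dox, and the ranges of the groups lay across one another. The log2 differences were −0.35 (SE 1.05) in the transgene comparison, −1.11 (SE 1.05) in the induction comparison and −0.75 (SE 1.11) in the control comparison. None was much larger than its standard error, with adjusted p = 1.00, 0.850 and 0.883 by edgeR (quasi-likelihood test, Benjamini-Hochberg adjustment). Each of the 3 differences hung on single mice. Without ASAH− Etoh-Dox replicate 4 the transgene difference was 0.99. Without ASAH+ Etoh replicate 4 the induction difference was −0.047 and the control difference 0.31. With any 1 mouse left out, the induction difference ran from −1.99 to −0.047.

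Cyp8b1 (ENSMUSG00000050445, chr9:121914356-121916305, minus strand), the 12α-hydroxylase that directs synthesis towards cholic acid, was also uneven. It measured 173, 73.8, 178 and 115 CPM in ASAH− Etoh-Dox. In ASAH+ Etoh-Dox the values were 82.8, 51.3, 174, 133 and 47.2 CPM. ASAH+ Etoh held both extremes, with 196, 27.2, 91.1 and 379 CPM. The group ranges overlapped, and the mouse with the highest Cyp8b1, ASAH+ Etoh replicate 4, also had the highest Cyp7a1. The log2 difference was −0.47 (SE 0.63) in the transgene comparison, −0.83 (SE 0.63) in the induction comparison and −0.36 (SE 0.67) in the control comparison. Without ASAH+ Etoh replicate 4 the induction difference was −0.11 and the control difference 0.34. With any 1 mouse left out, the transgene difference ran from −0.77 to −0.28.

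Both enzymes of the alternative route had close levels in all mice. Cyp27a1, the mitochondrial sterol 27-hydroxylase (ENSMUSG00000026170, chr1:74713574-74737892, plus strand), averaged 262 ± 13.6 CPM (SD, n = 4) in ASAH− Etoh-Dox, 282 ± 29.6 (SD, n = 5) in ASAH+ Etoh-Dox and 276 ± 17.7 (SD, n = 4) in ASAH+ Etoh. Its log2 differences were 0.11 (SE 0.087), 0.030 (SE 0.087) and −0.078 (SE 0.091) in the transgene, induction and control comparisons. Cyp7b1, the oxysterol 7α-hydroxylase (ENSMUSG00000039519, chr3:18071950-18243338, minus strand), averaged 12.8 ± 0.803 CPM (SD, n = 4), 12.8 ± 2.495 CPM (SD, n = 5) and 12.3 ± 0.867 CPM (SD, n = 4) in the groups in the same order. Cyp7b1 ran from 10.5 to 16.9 CPM over the 13 mice, and both of these extremes fell in ASAH+ Etoh-Dox.

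The conjugation enzymes were abundant and overlapped between groups. Slc27a5, the bile acid CoA ligase BACS (ENSMUSG00000030382, chr7:12988346-12998192, minus strand), ran from 808 to 1046 CPM, with group means of 921 ± 42.5 (SD, n = 4) in ASAH− Etoh-Dox, 885 ± 66.2 (SD, n = 5) in ASAH+ Etoh-Dox and 949.7 ± 102 (SD, n = 4) in ASAH+ Etoh. Baat, which joins the bile acid to taurine or glycine (ENSMUSG00000039653, chr4:49489422-49506557, minus strand), ran from 147 to 244 CPM. Its group means were 168 ± 30.3 (SD, n = 4), 173 ± 19.3 (SD, n = 5) and 192 ± 46.1 CPM (SD, n = 4) in the same order. The 6 log2 differences of Slc27a5 and Baat lay between −0.19 and 0.038.

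Nr1h4 encodes FXR, the bile acid receptor (ENSMUSG00000047638, chr10:89454234-89533585, minus strand). It was at 70.1, 92.3, 80.9 and 114 CPM in ASAH− Etoh-Dox. The ASAH+ Etoh-Dox mice had 95.9, 111, 87.7, 74.2 and 70.1 CPM. In ASAH+ Etoh it was at 102, 105, 101 and 90.2 CPM. The ASAH+ Etoh mice lay close together inside the range of the other groups. The log2 difference of Nr1h4 was −0.024 (SE 0.15) in the transgene comparison, −0.18 (SE 0.15) in the induction comparison and −0.16 (SE 0.16) in the control comparison.

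Nr0b2 encodes SHP, the repressor that FXR induces (ENSMUSG00000037583, chr4:133553376-133556536, plus strand). Its level was 33.9, 11.3, 23.2 and 10.3 CPM in ASAH− Etoh-Dox. In the ASAH+ Etoh-Dox mice it was 16.7, 6.52, 21.04, 53.8 and 31.8 CPM. The ASAH+ Etoh mice had 15.0, 13.4, 10.2 and 17.3 CPM. ASAH+ Etoh-Dox held the lowest and the highest mouse, and all ASAH+ Etoh mice lay within its range. The 3 mice with the highest Nr0b2 (ASAH+ Etoh-Dox replicates 4 and 5 and ASAH− Etoh-Dox replicate 1) were the 3 with the lowest Nr1h4. The log2 difference of Nr0b2 was 0.40 (SE 0.52) in the transgene comparison, 0.89 (SE 0.53) in the induction comparison and 0.49 (SE 0.55) in the control comparison. None passed the test, with adjusted p = 1.00, 0.747 and 0.837 by edgeR (quasi-likelihood test, Benjamini-Hochberg adjustment). Without ASAH+ Etoh-Dox replicate 4 the transgene difference was −0.048 and the induction difference 0.44, and without ASAH− Etoh-Dox replicate 1 the control difference was 0.072.

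Slc10a1, the sodium-dependent carrier NTCP that takes conjugated bile acids up from portal blood (ENSMUSG00000021135, chr12:80953183-80968705, minus strand), had the smallest p of the 10 genes. Its level was 678, 696, 623 and 586 CPM in ASAH− Etoh-Dox. The ASAH+ Etoh-Dox mice had 564, 550.1, 627, 622 and 571 CPM. In ASAH+ Etoh it was 838, 599.6, 774 and 956 CPM. Of the ASAH+ Etoh mice, 3 of 4 lay above every mouse of the other groups, and replicate 2 lay among them, so the ranges overlapped. In the induction comparison the log2 difference was −0.43 (SE 0.11), with adjusted p = 0.473 by edgeR (quasi-likelihood test, Benjamini-Hochberg adjustment). The ASAH+ Etoh-Dox mouse was the higher one in 2 of 20 pairs of mice. The edgeR model gave an unadjusted p = 0.00188 and an exact two-sided permutation test of log2 CPM p = 0.0476, where the smallest p that 5 against 4 mice allow is 0.0159. In the control comparison the log2 difference was −0.29 (SE 0.12), with p = 0.0279 unadjusted and p = 0.489 adjusted by edgeR (quasi-likelihood test, Benjamini-Hochberg adjustment), and two-sided permutation over all divisions gave an exact p of 0.143, where 4 against 4 mice allow no p below 0.0286. The transgene comparison gave −0.14 (SE 0.11). DESeq2 with Benjamini-Hochberg adjustment called Slc10a1 in the induction comparison, at −0.44 and adjusted p = 0.0143 over the 1982 genes it kept, or adjusted p = 0.0596 over 14315 of the genes that edgeR tested. Without ASAH+ Etoh replicate 2, edgeR with Benjamini-Hochberg adjustment called it too, at −0.54 and adjusted p = 0.0905, and over all alternatives its adjusted p ran from 0.0143 to 0.862.

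Marker genes of liver cell types are given here beside Slc10a1, and none passed the adjusted threshold by edgeR in any comparison. Their counts at an unadjusted p under 0.05 stand against 2.86%, 7.29% and 9.19% of all genes in the transgene, induction and control comparisons. All 4 of 4 red cell genes had an unadjusted p under 0.05 by edgeR and a positive difference in the induction and the control comparison, with median log2 differences of 1.87 and 2.23, and 0 of 4 had one in the transgene comparison. Their summed level was 220.2, 728, 1672 and 205 CPM in ASAH− Etoh-Dox, 669, 228, 843, 341 and 626 CPM in ASAH+ Etoh-Dox, and 127, 149, 164 and 184 CPM in ASAH+ Etoh. Hbb-bs was the most abundant and none was at 0. The Kupffer cell genes had 4 of 5 at an unadjusted p under 0.05 and higher in the control comparison, with Cd5l the most abundant and none at 0. Their sums were 313, 307, 657 and 390.2 CPM in ASAH− Etoh-Dox, 429, 437, 230.2, 374 and 229 CPM in ASAH+ Etoh-Dox, and 305, 238, 259 and 278 CPM in ASAH+ Etoh. The sinusoidal endothelium genes had 3 of 4 at an unadjusted p under 0.05 and lower in the induction comparison and 2 of 4 lower in the transgene comparison, with median log2 differences of −0.48 and −0.37, with Clec4g the most abundant and none at 0. They summed to 106, 91.0, 172 and 119 CPM in ASAH− Etoh-Dox, 93.5, 98.6, 84.0, 114 and 100.2 CPM in ASAH+ Etoh-Dox, and 141, 105, 126 and 126 CPM in ASAH+ Etoh. Of the 6 hepatocyte genes, 1 had an unadjusted p under 0.05 in each comparison, Apoa1 in the transgene (−0.28) and control (0.54) comparisons and Cps1 in the induction comparison (−0.70). Of the other lists, lymphocyte genes had 1 of 3 tested higher at an unadjusted p under 0.05 in the induction and 2 of 3 in the control comparison, and stellate cell genes 1 of 4 lower in the transgene and 1 of 4 higher in the control comparison. Pericentral genes had 1 of 6 lower in the induction comparison, periportal genes 1 of 6 higher in the transgene, 1 lower in the induction and 2 lower in the control comparison, and clock genes 0 of 15 in each. The part of these cell types in the values of Slc10a1 was not tested. In whole liver, fewer cells of a type and less RNA per cell cannot be told apart.

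Abcb11, the bile salt export pump BSEP (ENSMUSG00000027048, chr2:69238282-69342616, minus strand), carries conjugated bile acids across the canalicular membrane. It was at 803, 593, 629 and 437 CPM in ASAH− Etoh-Dox. The ASAH+ Etoh-Dox mice had 564, 579, 879, 866 and 921 CPM. In ASAH+ Etoh it was at 773, 720.1, 731 and 846 CPM. ASAH+ Etoh-Dox split into 3 high and 2 low mice, which lay either side of the whole ASAH+ Etoh range. The log2 difference of Abcb11 was 0.31 (SE 0.18) in the transgene comparison, −0.011 (SE 0.18) in the induction comparison and −0.32 (SE 0.19) in the control comparison. Without ASAH− Etoh-Dox replicate 4 the transgene difference was 0.17 and the control difference −0.19, and without ASAH− Etoh-Dox replicate 1 they were 0.47 and −0.49. With all 13 mice and no covariate the smallest adjusted p of Abcb11 was 0.649, in the control comparison, by edgeR (quasi-likelihood test, Benjamini-Hochberg adjustment), and over all alternatives it ran there from 0.288 to 0.896. The lowest value came from the edgeR fit with the ratio of the clock genes Dbp to Arntl, given below, as a covariate. Abcb11 overlaps the opposite-strand genes Gm13613 and Gm13614, which had 57 and 0 counts over all 13 mice, and the other 9 genes overlap no annotated gene.

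**Figure D2:**
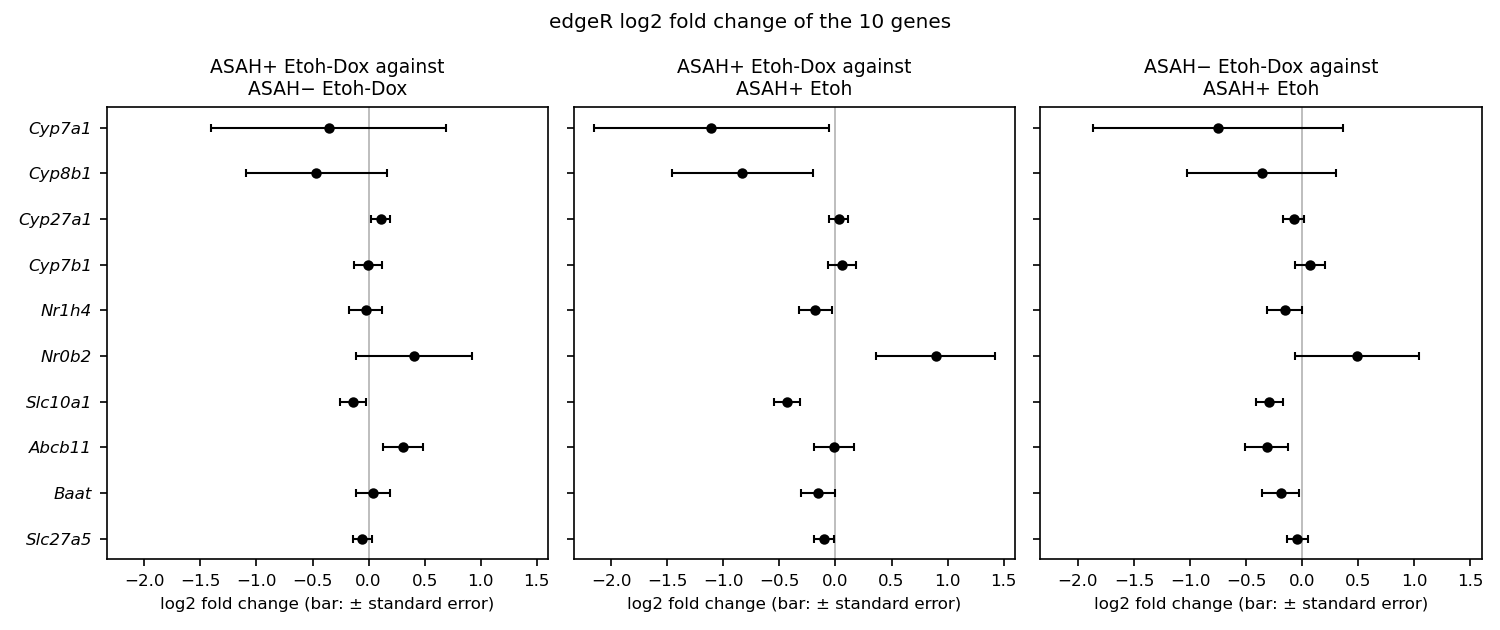
Log2 fold change of each of the 10 genes in the transgene, induction and control comparisons from edgeR, with bars of 1 standard error. Bars for Cyp7a1, Cyp8b1 and Nr0b2 are the widest, and Slc10a1 in the induction comparison, at −0.43, lies farthest from 0 for its error.

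Nr0b2, Abcb11 and Cyp8b1 are the members with a sequence motif of a bile acid regulator before the start site among those whose promoter window was at hand, and they are shown because Nr0b2 and Abcb11 varied together across mice and Cyp8b1 holds a motif that Nr0b2 also holds. RefSeq windows, from 250 bases before to 50 bases after the start, matched 6 of 10 genes (7 windows, GRCm38.p6). Windows were not matched for Cyp7a1, Cyp7b1, Baat and Slc27a5. Capitals mark AGGNCA followed after 1 base by TGACCT (an inverted repeat of the kind FXR binds, N being any base) in Abcb11, CAAGGNCA (a single site of the kind that Nr5a2 binds) in Nr0b2 and Cyp8b1, and CACGTG (an E-box) in Nr0b2, searched on both strands. The windows are chr2:69342567-69342866 on the minus strand, chr4:133553126-133553425 on the plus strand and chr9:121916256-121916555 on the minus strand.
Abcb11: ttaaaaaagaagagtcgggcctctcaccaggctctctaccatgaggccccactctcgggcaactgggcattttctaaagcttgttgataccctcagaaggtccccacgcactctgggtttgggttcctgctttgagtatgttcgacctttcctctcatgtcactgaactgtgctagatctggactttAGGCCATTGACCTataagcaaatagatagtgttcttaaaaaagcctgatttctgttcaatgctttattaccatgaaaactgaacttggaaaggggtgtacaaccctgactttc
Nr0b2: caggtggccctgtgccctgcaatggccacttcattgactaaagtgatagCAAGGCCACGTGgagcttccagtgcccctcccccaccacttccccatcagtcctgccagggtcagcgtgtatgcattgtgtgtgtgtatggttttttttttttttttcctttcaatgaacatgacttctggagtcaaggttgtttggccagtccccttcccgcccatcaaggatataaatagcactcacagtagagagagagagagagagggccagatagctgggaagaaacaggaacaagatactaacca
Cyp8b1: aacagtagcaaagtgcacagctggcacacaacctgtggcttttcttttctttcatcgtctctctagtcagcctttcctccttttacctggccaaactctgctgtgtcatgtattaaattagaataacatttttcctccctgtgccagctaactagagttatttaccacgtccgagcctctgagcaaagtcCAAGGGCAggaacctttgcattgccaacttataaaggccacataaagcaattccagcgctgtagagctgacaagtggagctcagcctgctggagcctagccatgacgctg
The match in Abcb11 covers bases −63 to −51 from the start, and 12 of 32851 windows of the same length in the mouse genome (0.0365%) hold the motif. In Nr0b2, CAAGGCCA covers bases −201 to −194 and overlaps CACGTG at −195 to −190. Cyp8b1 has CAAGGGCA at −60 to −53. CAAGGNCA is held by 6.71% of all windows and CACGTG by 7.15%. The D-box TTATGNAA, held by 3.38% of all windows, was found in Cyp27a1 and in 1 of 2 windows of Slc10a1, the one at a start inside the gene (chr12:80968030-80968329, minus strand). The only window of Nr1h4 (chr10:89506609-89506908, minus strand) is also at a start inside the gene and held none of these motifs, and the gene start given above was not searched. A match describes the letters of the sequence and does not show that a factor binds there.

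Across the 13 mice Cyp7a1 was lower where Nr0b2 was higher. Of a family of 5 relations tested on log2 CPM, 2 passed after Benjamini-Hochberg adjustment of two-sided permutation p-values. Cyp7a1 and Nr0b2 had Pearson's r = −0.738 (permutation p = 0.00454, adjusted p = 0.0227 by Benjamini-Hochberg) and Spearman's rho = −0.720 (permutation p = 0.00672, adjusted p = 0.0336 by Benjamini-Hochberg). The mice with the 4 highest Nr0b2 values, ASAH+ Etoh-Dox replicates 4 and 5 and ASAH− Etoh-Dox replicates 1 and 3, had the 4 lowest Cyp7a1 values. Taken as deviations from the group means, r was −0.707 (permutation p = 0.00658, adjusted p = 0.0164 by Benjamini-Hochberg). Without the 2 mice farthest from the median of Nr0b2 (ASAH+ Etoh-Dox replicates 2 and 4), r was −0.680 (permutation p = 0.0223, adjusted p = 0.111 by Benjamini-Hochberg), and whether those mice or the smaller number raised the adjusted p was not tested.

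Abcb11 was higher where Nr0b2 was higher, with r = 0.641 (permutation p = 0.0148, adjusted p = 0.0370 by Benjamini-Hochberg) and rho = 0.676 (permutation p = 0.0139, adjusted p = 0.0348 by Benjamini-Hochberg). As deviations from the group means the relation had r = 0.799 (permutation p = 0.000900, adjusted p = 0.00450 by Benjamini-Hochberg). Without the same 2 mice r was 0.589 (permutation p = 0.0478, adjusted p = 0.120 by Benjamini-Hochberg), and the same holds for this adjusted p. In each group the mice with the highest ratio of the clock genes Dbp to Arntl, given below, also had the lowest Nr0b2 and Abcb11. The part of this ratio in the relations of Cyp7a1 and Abcb11 with Nr0b2 was not tested. Cyp8b1, another known SHP target, did not follow Nr0b2, with r = 0.304 (permutation p = 0.313, adjusted p = 0.391 by Benjamini-Hochberg) and rho = 0.357 (permutation p = 0.230, adjusted p = 0.287 by Benjamini-Hochberg). Cyp7a1 against Cyp8b1 gave r = 0.257 (permutation p = 0.395, adjusted p = 0.395 by Benjamini-Hochberg) and rho = 0.258 (permutation p = 0.395, adjusted p = 0.395 by Benjamini-Hochberg), and r was −0.0148 without ASAH+ Etoh replicates 2 and 4.

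**Figure D3:**
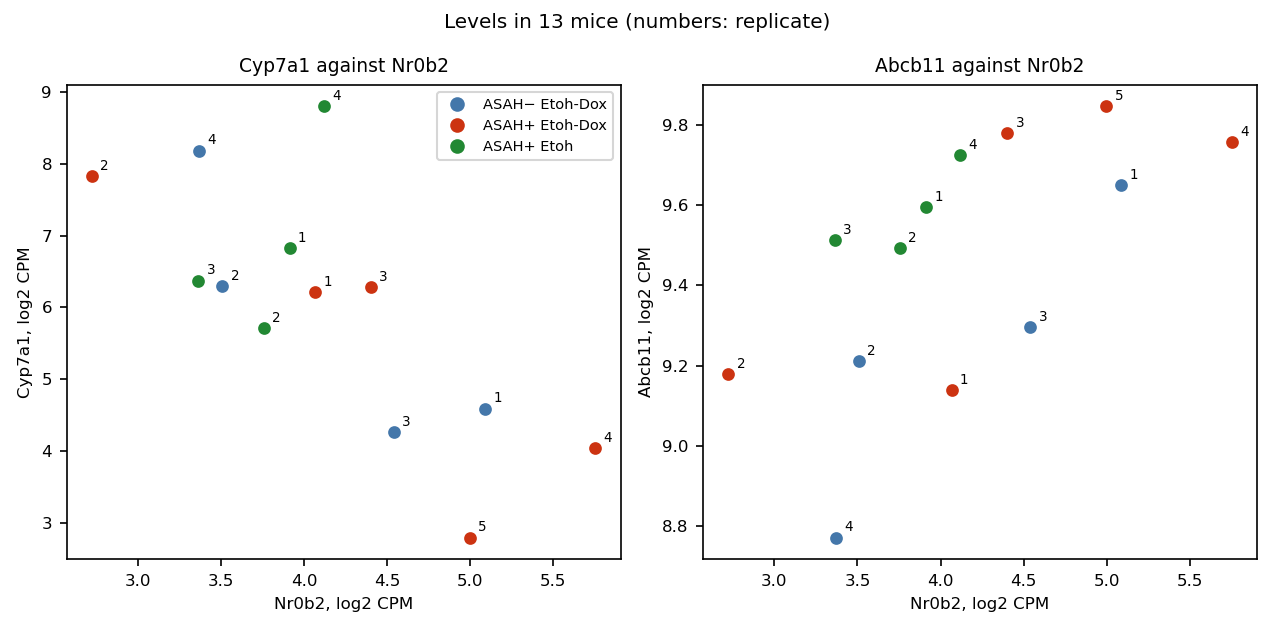
Level of Cyp7a1 (left) and Abcb11 (right) against Nr0b2, all in log2 CPM, each point a mouse coloured by group with its replicate number. Cyp7a1 is lowest in the mice with the highest Nr0b2 (r = −0.738), and Abcb11 is higher there (r = 0.641).

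Livers also differed in their clock genes, and Cyp7a1 is known to have a daily rhythm. The log2 ratio of Dbp to Arntl, which peak at opposite times of day, was −0.96, 6.49, 1.81 and 6.11 in ASAH− Etoh-Dox, 6.64, 6.78, −1.64, 0.15 and 2.70 in ASAH+ Etoh-Dox, and 4.45, 6.06, 5.05 and 1.60 in ASAH+ Etoh. ASAH+ Etoh-Dox held both the lowest and the highest ratio. The highest ratios were those of replicates 2 and 4 in ASAH− Etoh-Dox and replicates 1 and 2 in ASAH+ Etoh-Dox. In ASAH+ Etoh they were those of replicates 2 and 3. Within each group these mice also had the lowest Nr0b2 and the lowest Abcb11. Of the 10 genes only Cyp7a1 was correlated with the ratio, and how far Nr0b2, Abcb11 and Nr1h4 followed it was not tested. Cyp7a1 against this ratio gave r = 0.401 (permutation p = 0.177, adjusted p = 0.295 by Benjamini-Hochberg) and rho = 0.368 (permutation p = 0.221, adjusted p = 0.287 by Benjamini-Hochberg), and r was 0.443 without ASAH− Etoh-Dox replicate 1 and ASAH+ Etoh-Dox replicate 3. With the ratio as a covariate, edgeR called 0 of the 10 genes in each comparison, and 1, 1 and 2 of the 10 had an unadjusted p under 0.05 in the transgene, induction and control comparisons, against 0, 1 and 1 without it. Of the 50 list genes, 5, 11 and 11 had one with the covariate and 2, 10 and 9 without it. Counts over all genes tested also rose, to 539, 1261 and 1561 with the covariate from 409, 1044 and 1316 without it.

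Over all 45 pairs of the 10 genes, r of the deviations from the group means ran from −0.917 to 0.878, and 9 pairs were above 0.7 in size. These are given as a description with no p, and all points of a pair share their libraries. The share of such pairs among other genes was not taken, so the count cannot be read as particular to these genes. The strongest involved Nr1h4, which went opposite to Abcb11 (r = −0.917, rho = −0.945, n = 13) and to Nr0b2 (r = −0.898, rho = −0.901, n = 13). Without the 2 mice farthest from the median of the second gene these were −0.917 and −0.909. Nr1h4 went the same way as Cyp7a1 (r = 0.759, rho = 0.676, n = 13), with r = 0.685 without ASAH− Etoh-Dox replicates 1 and 4. A second cluster joined Cyp8b1 with Baat (r = 0.878, rho = 0.852, n = 13), Slc10a1 with Baat (r = 0.784, rho = 0.632, n = 13) and Cyp8b1 with Slc10a1 (r = 0.825, rho = 0.593, n = 13). For the last pair r was 0.466 without ASAH+ Etoh replicates 2 and 4. Without ASAH− Etoh-Dox replicate 1 and ASAH+ Etoh replicate 4, r was 0.895 for Cyp8b1 with Baat and 0.728 for Slc10a1 with Baat. Cyp27a1 and Slc27a5 also varied together (r = 0.749, rho = 0.703, n = 13), with r = 0.587 without ASAH+ Etoh replicate 2 and ASAH+ Etoh-Dox replicate 1.

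Among 11111 genes with a mean above 1 log2 CPM, the 5 whose deviations were most like those of Cyp7a1 over the 13 mice were Rmnd5a (r = 0.901), Atg16l1 (0.901), Zfp612 (0.900), Aqp4 (0.900) and Larp4 (0.873). For Cyp8b1 they were Hist1h1c (r = 0.969), Zmat1 (0.923), Ints3 (0.919), Epha2 (0.915) and Ythdc1 (0.913). Those most like Cyp7b1 were Ifitm3 (r = 0.891), Ugt1a6b (0.874), Ugt1a6a (0.873), BC005537 (0.816) and Phkb (0.807), of which Ugt1a6a and Ugt1a6b share exons, so that their counts are uncertain.

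Levels of different genes were compared per length, as CPM per kb of exon averaged over the 13 mice. The order was Slc27a5 (376 ± 29.8, SD), Slc10a1 (304 ± 54.9), Abcb11 (139.6 ± 28.7), Cyp27a1 (126 ± 10.3), Baat (91.3 ± 16.3), Cyp8b1 (67.9 ± 47.6), Nr1h4 (39.9 ± 6.41), Cyp7a1 (27.9 ± 31.2), Nr0b2 (17.97 ± 11.5) and Cyp7b1 (5.83 ± 0.729). Neighbours in this order lay within 1 SD of each other's ranges except for Slc10a1 above Abcb11 and Cyp27a1 above Baat. The order of group means differed for Abcb11 (119.6) and Cyp27a1 (120.4) in ASAH− Etoh-Dox and for Cyp7a1 (19.3) and Nr0b2 (22.95) in ASAH+ Etoh-Dox. Cyp27a1 thus had a higher level per length than Cyp7b1, the other alternative-route enzyme among the 10.

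Spread between mice of a group, as the SD of log2 CPM, had a median of 0.24 over all genes tested and a percentile 90 of 0.57. Cyp7a1 had 1.76, which 0.622% of genes exceeded, Cyp8b1 1.09 (1.80% higher) and Nr0b2 0.86 (3.21% higher). Cyp27a1 and Slc27a5, with 0.12 and 0.11, were steadier than most genes, 88.2% and 88.6% of genes having a larger SD. Of the wider list Slco1a1, an organic anion carrier, had the largest spread at 2.23, at levels of 0.0461 to 10.9 CPM.

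**Figure D4:**
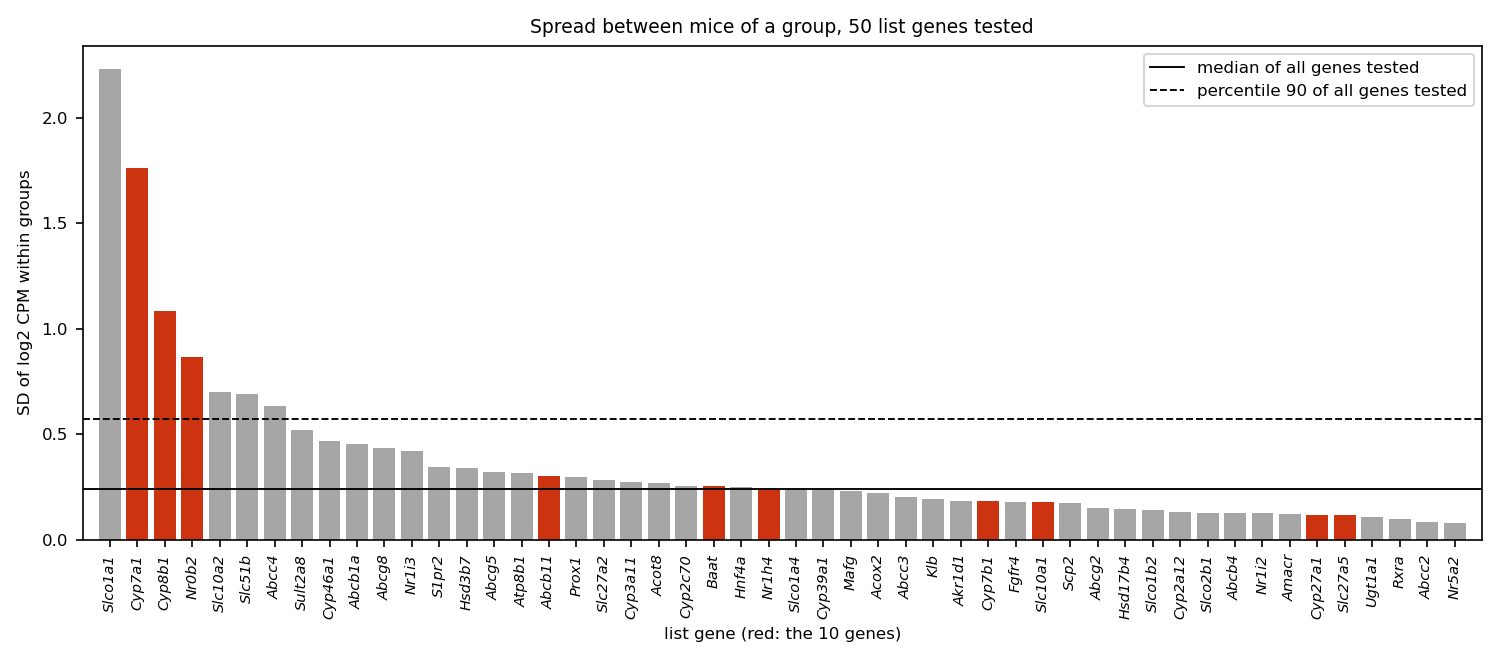
SD of log2 CPM between mice of a group for the 50 bile acid list genes tested, with the 10 genes in red and lines at the median (0.24) and percentile 90 (0.57) of all genes tested. Cyp7a1, Cyp8b1 and Nr0b2 lie above the percentile 90 line.

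The 10 genes sat within a wider list of 55, of which 50 were tested. The other 5 (Ch25h, Vdr, Gpbar1, Fgf15 and Slc51a) had too few counts, and Fgf15, which the ileum secretes, had 0 counts in every mouse, which allows up to 0.0829 to 0.173 CPM by mouse (3 counts). In the transgene comparison edgeR, DESeq2 and limma-voom each called 0 of 50 list genes, and 2 of 50 had an unadjusted p under 0.05 by edgeR, both higher, against 2.86% of all genes. There 23 differences were positive and 27 negative, with a median log2 difference of −0.026 against −0.0023 over all genes. No list gene separated the groups without overlap, against 0.887% of all genes.

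In the induction comparison edgeR called 0 of 50 list genes, with 10 at an unadjusted p under 0.05, of which 9 were lower, against 3.24% of all genes at p under 0.05 and lower. DESeq2 called 8 of the 36 to which it gave an adjusted p (Slc10a1, Abcb4, Abcc2, Cyp39a1, Cyp3a11, Prox1, Slco1b2 and Ugt1a1), against 98 genes or 4.94% of all with an adjusted p. Adjusted over 14315 of the genes that edgeR tested, DESeq2 called 2 list genes, Slc10a1 and Abcc2, and 70 genes in all. By limma-voom 0 were called. Differences were positive for 16 and negative for 34, with a median of −0.079 against 0.013 over all genes, of which 47.0% were negative. The groups did not overlap for 3 of the 50, Abcb4 and Abcc2 lower and Slc10a2 higher, and for 0 of the 10, against 2.58% of all genes.

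For the control comparison edgeR called 0 of 50, with 9 at an unadjusted p under 0.05, all lower, against 4.11% of all genes at p under 0.05 and lower. DESeq2 called 3 of the 46 with an adjusted p (Abcb4, Abcc2 and Nr5a2), against 149 genes or 1.73% of all with an adjusted p, and limma-voom called 0. The same 3 were called by DESeq2 when adjusted over 14315 of the genes that edgeR tested, with 106 genes in all. Here 14 were positive and 36 negative, with a median of −0.11 against 0.016 over all genes, of which 46.8% were negative. Groups did not overlap for 3 of the 50, Nr5a2, Abcb4 and Abcc2, all lower, and for 0 of the 10, against 5.50% of all genes. The induction and control comparisons share the ASAH+ Etoh mice, so their counts are not independent of each other.

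By role, the list genes with an unadjusted p under 0.05 by edgeR in the induction comparison were 3 of 6 in uptake, 2 of 8 in canalicular export, 2 of 3 in detoxification, 1 of 3 in sinusoidal export, 1 of 6 in the alternative route, 1 of 12 among regulators and 0 in the other roles, against 7.29% of all genes. The control comparison had 2 of 6 in uptake, 2 of 8 in canalicular export, 2 of 3 in detoxification, 1 of 4 in the classic route, 1 of 6 in the alternative route, 1 of 12 among regulators and 0 in the others, against 9.19% of all genes. In the transgene comparison there were 1 of 6 in uptake, 1 of 12 among regulators and 0 in the others, canalicular export among them, against 2.86% of all genes. Abcb4, the phospholipid floppase of the canaliculus, was at 270.0, 236, 262 and 285 CPM in ASAH− Etoh-Dox, 266, 229, 279, 287 and 316 CPM in ASAH+ Etoh-Dox, and 339, 339, 326 and 352 CPM in ASAH+ Etoh. All 4 ASAH+ Etoh mice lay above all 9 others. Its log2 difference was −0.30 (SE 0.091) in the induction comparison and −0.37 (SE 0.096) in the control comparison, with adjusted p = 0.512 and 0.389 by edgeR (quasi-likelihood test, Benjamini-Hochberg adjustment). Abcc2, a canalicular pump for conjugated organic anions, had 504, 484, 502 and 513 CPM in ASAH− Etoh-Dox, 561, 490.5, 449.8, 523 and 538 CPM in ASAH+ Etoh-Dox, and 607, 619.5, 600.5 and 587 CPM in ASAH+ Etoh. It divided the mice in the same way, with log2 differences of −0.24 (SE 0.074) and −0.27 (SE 0.078).

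Uptake, the role of Slc10a1, held Slco1b2, an organic anion carrier, at −0.28 (SE 0.097) in the induction comparison and −0.24 (SE 0.10) in the control comparison. Slc10a2, the bile acid carrier ASBT of ileum and bile duct cells, was low in liver, at 3.83, 1.39, 2.94 and 1.22 CPM in ASAH− Etoh-Dox, 3.76, 13.5, 5.03, 3.85 and 3.99 CPM in ASAH+ Etoh-Dox, and 1.75, 2.32, 1.76 and 3.64 CPM in ASAH+ Etoh. Replicate 2 of ASAH+ Etoh-Dox stood above all others. The log2 difference was 1.38 (SE 0.47) in the transgene comparison and 1.36 (SE 0.47) in the induction comparison, and without that mouse these were 0.84 and 0.82. Bile duct cell markers (6 genes, 5 tested and 0 at an unadjusted p under 0.05, Spp1 the most abundant, 1 at 0 in ASAH+ Etoh replicate 3) summed to 36.2 to 79.5 CPM in ASAH− Etoh-Dox, 31.8 to 47.1 CPM in ASAH+ Etoh-Dox and 38.5 to 52.0 CPM in ASAH+ Etoh. The 4 enterocyte genes, with Apoa4 the most abundant, summed to 283 to 1095 CPM in ASAH− Etoh-Dox, 269.6 to 535 CPM in ASAH+ Etoh-Dox and 294 to 697 CPM in ASAH+ Etoh. Of the 2 tested, Fabp2 was 0.43 (SE 0.13) with an unadjusted p under 0.05 by edgeR in the induction comparison, where Slc10a2 was also higher. Apoa4, the other gene tested, went the opposite way there, at −0.29 (SE 0.47), and did not reach that p. Fabp6 had 0 counts in every mouse, and Vil1 had 51 counts over all 13 mice. The enterocyte sums are thus almost all Apoa4 and Fabp2, with means of 386 and 80.0 CPM over the 13 mice. The part of other cells in Slc10a2 was not tested.

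Among regulators, Nr5a2 (LRH-1) was 0.15 (SE 0.070) in the transgene comparison and −0.24 (SE 0.074) in the control comparison, and Prox1 was −0.57 (SE 0.18) in the induction comparison. In synthesis, Cyp39a1, the oxysterol 7α-hydroxylase for 24-hydroxycholesterol, was −0.50 (SE 0.14) in the induction and −0.35 (SE 0.15) in the control comparison, and Akr1d1, the 5β-reductase, was −0.30 (SE 0.12) in the control comparison. Abcc3, which exports across the sinusoidal side, was −0.36 (SE 0.13) in the induction comparison. The detoxification genes Cyp3a11 and Ugt1a1 were −0.49 (SE 0.16) and −0.25 (SE 0.083) in the induction comparison and −0.53 (SE 0.17) and −0.22 (SE 0.087) in the control comparison. Cyp3a11 has close paralogs and Ugt1a1 shares exons with its neighbours, so reads could be divided among them and these values are uncertain.

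**Figure D5:**
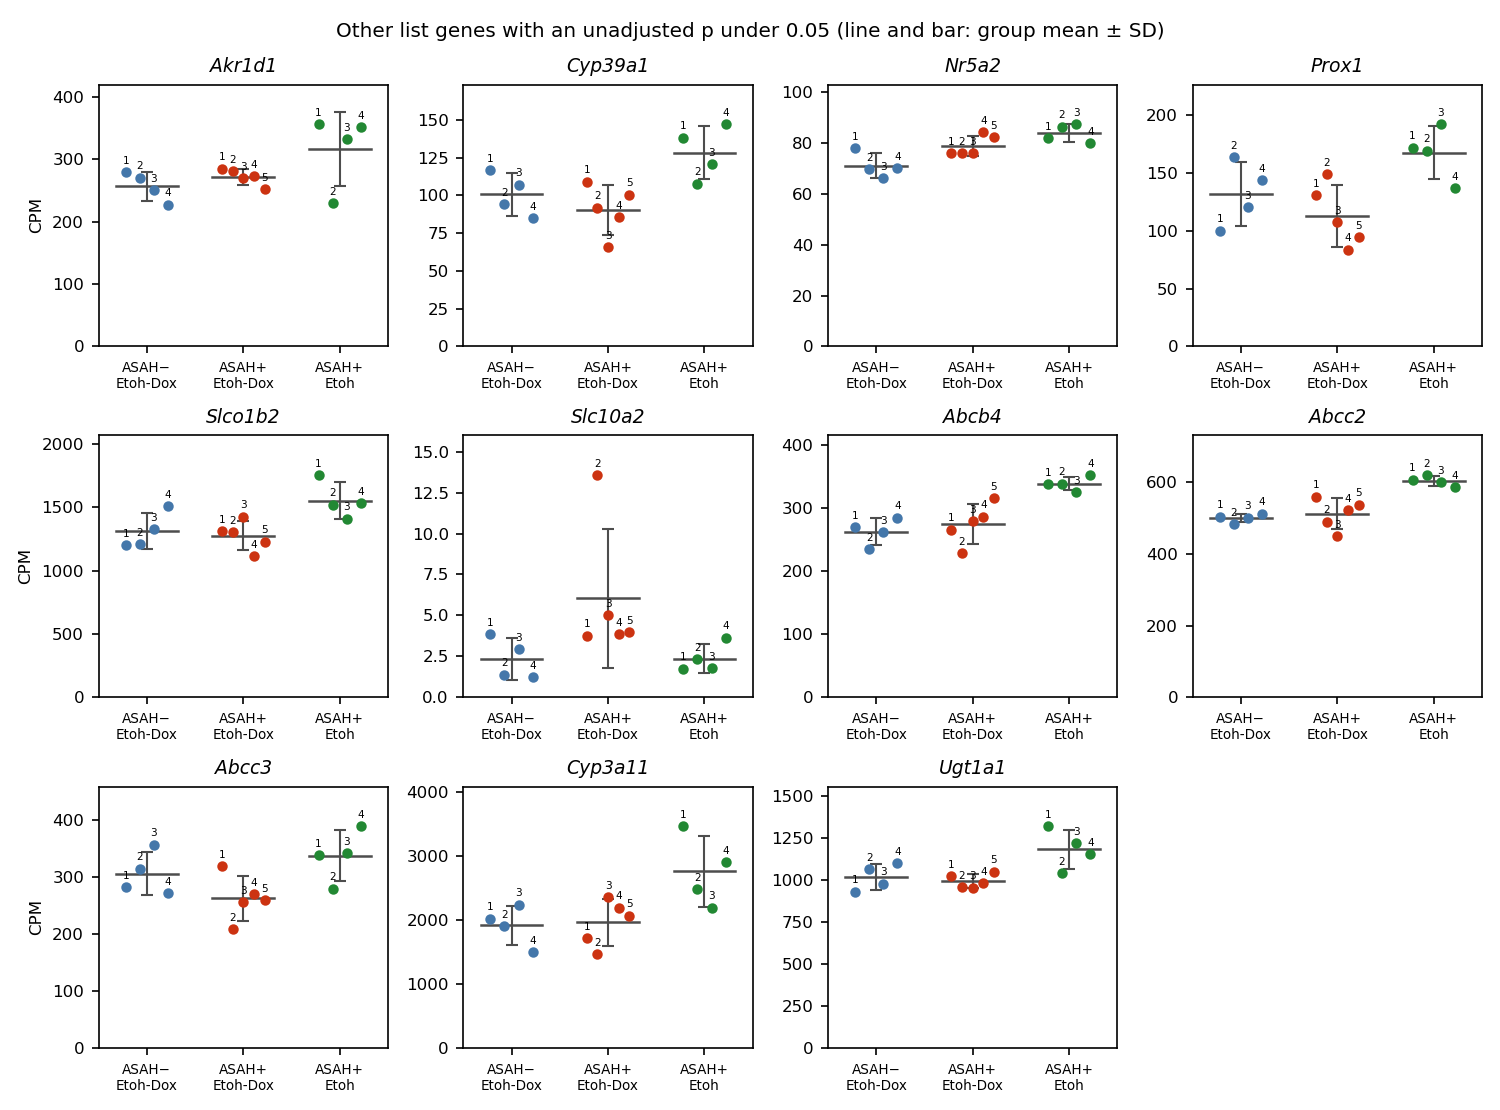
Level (CPM) in 13 mice of the 11 other list genes with an unadjusted p under 0.05 in any comparison, each point a mouse with its replicate number, with group mean and SD. All 4 ASAH+ Etoh mice lie above the others for Abcb4 and Abcc2, and 1 ASAH+ Etoh-Dox mouse stands apart for Slc10a2 at 13.5 CPM.

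Per length, the most abundant list gene of each role was Hsd3b7 (122 CPM per kb) in classic synthesis, Cyp2c70 (238) in the alternative route and muricholic acid synthesis, Scp2 (673) in side chain and conjugation, Hnf4a (142) among regulators, Slc10a1 (304) in uptake, Abcb11 (139.6) in canalicular export, Abcc3 (52.4) in sinusoidal export and Ugt1a1 (477) in detoxification. These are means over all 13 mice, and the gene second in its role overlapped within 1 SD for Hsd3b7, Cyp2c70, Slc10a1 and Ugt1a1. In ASAH+ Etoh Cyp3a11 (542 CPM per kb) was above Ugt1a1 (533). Abcb11 stood above the next canalicular gene, Abcc2 (62.9 ± 6.29, SD), by more than their SDs.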

How the data were processed

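The deposited table holds estimated counts per gene, which the authors made with Salmon and tximport against GENCODE release M19 (genome build GRCm38.p6; program versions are not given in the sources used here). All values were already whole numbers, so rounding changed none. Of 53392 gene IDs, 53355 matched GENCODE M21, which gave positions and exon lengths. Mice were grouped by description and induction label, and members and lists were chosen with earlier results of these data known.

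Analysis used R 4.3.3, edgeR 4.0.16, limma 3.58.1, DESeq2 1.42.0 and scipy 1.17.1, and was tested on simulated data. Genes were kept by filterByExpr over the 3 groups and normalized by TMM. All 13 mice entered a single edgeR quasi-likelihood fit having a mean for each of the 3 groups, and p-values were adjusted by Benjamini-Hochberg over 14317 genes and called under 0.1. The standard error is the size of the log2 fold change over the square root of F. Single genes of the 10 were also compared by exact two-sided permutation of log2 CPM (prior count 2), and 5 correlations by 100000 permutations. CPM uses TMM library sizes, and CPM per kb divides by the union of exons.

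Named were all 10 members, each list gene with an unadjusted p under 0.05 in any comparison, the most abundant list gene of each role per length, and for Cyp7a1, Cyp8b1 and Cyp7b1 the 5 genes most alike. Alternatives were DESeq2, its size factors in edgeR, limma-voom, fits on the groups compared only, no filter, a replicate block, the Dbp to Arntl ratio as covariate, and each mouse left out in turn. For list genes other than the 10 these were chosen after seeing the data. The 45 member pairs were likewise examined after seeing the data. Counts of all 78 pairs of mice differed by chi-square over degrees of freedom of 17.3 to 99.8, so no library was a repeat of another. Reads were amplified by PCR with no molecular identifiers used here, so limits from counts cover counting error only.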

Additional observations from a re-analysis of the deposited data

Results flagged for a closer look

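Gaps between a mouse and the rest of its group were examined in 108 groups (25 named genes and 11 marker sums in each of 3 groups). The gap to the nearest mouse, divided by the range of the group, taken on log2 CPM, exceeded Dixon's 95% critical value for its number of mice in 2 of them, and chance gives about 1 in 20 groups. Akr1d1, the 5β-reductase of bile acid synthesis, had a gap of 0.842 on log2 CPM (0.811 on CPM, below the critical value) at the lowest mouse of ASAH+ Etoh, replicate 2 at 229.6 CPM against 332 to 356 CPM in the other 3. Slc10a2, the carrier ASBT, had a gap of 0.775 on log2 CPM (0.871 on CPM) at the highest mouse of ASAH+ Etoh-Dox, replicate 2 at 13.5 CPM against 3.76 to 5.03 CPM in the other 4. On CPM without logs the highest ASAH+ Etoh mouse of Cyp7a1, replicate 4, also exceeded the critical value, with 0.846 against 0.640 on log2 CPM.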

How the results depend on the processing

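Of 210 log2 differences of the 10 genes under alternatives other than leaving out a mouse, 200 kept their direction and their side of the threshold, 9 reversed and 1, Slc10a1 in the induction comparison by DESeq2 (−0.44), passed the threshold. Those that reversed had values near 0 or wide errors. In the transgene comparison Cyp7b1 was 0.00055 by DESeq2, 0.00078 on the groups compared only and 0.0063 with no filter, and Nr1h4 was 0.0098 with the Dbp to Arntl ratio. In the control comparison Cyp8b1 was 0.12 by limma-voom. The cause was not tested. Cyp7a1 with Cyp8b1 had r = −0.0148, Cyp7a1 with Nr0b2 −0.680 and Abcb11 with Nr0b2 0.589 without the 2 mice farthest from the median.

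With the replicate block, differences in the transgene comparison were 0.89 for Cyp7a1, 0.041 for Cyp7b1 and 0.047 for Nr1h4, and Cyp8b1 in the control comparison was 0.0052. The block called 1 gene in the transgene, 2 in the induction and 0 in the control comparison, and 1, 9 and 5 list genes had an unadjusted p under 0.05. Over all genes tested, 215, 783 and 1027 had one with the block, and 409, 1044 and 1316 without it. Nothing in the labels pairs the mice: the deviations of 12 same-numbered pairs had a mean r of −0.0462 against 0.0153 for 36 other pairs, 2 of 12 were over 0.1, and 0 of 12 mice correlated best with their own number.

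Genes called numbered 12, 98 and 149 by DESeq2 in the transgene, induction and control comparisons, against 2 in each by edgeR. With DESeq2 adjusted over the genes tested by edgeR, an alternative added after the values were seen, they numbered 11, 70 and 106. On the groups compared only, they were 1 in the transgene and 0 in the control comparison, with no filter 4 in the induction comparison, and with the Dbp to Arntl ratio 1 in the control comparison. List genes at an unadjusted p under 0.05 in the transgene comparison were 1 on the groups compared only, 1 with no filter and 5 with the Dbp to Arntl ratio. All genes at that p numbered 343, 795 and 539 in the same order, against 409 without these changes, and more genes are tested with no filter.

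With 1 of 13 mice left out, genes called ran from 1 to 2 in the transgene (1 without ASAH− Etoh-Dox replicate 1, 3 or 4), 2 to 8 in the induction (8 without ASAH+ Etoh replicate 2) and 0 to 2 in the control comparison, where the count was 0 or 1 unless ASAH− Etoh-Dox replicate 4 was the mouse left out. List genes at an unadjusted p under 0.05 ran from 1 to 5 in the transgene comparison (5 without ASAH+ Etoh-Dox replicate 1). They ran from 9 to 13 in the induction comparison and from 5 to 10 in the control comparison (5 without ASAH+ Etoh replicate 1). All genes at that p ran from 302 to 722 in the transgene, 759 to 1174 in the induction and 881 to 1853 in the control comparison. Log2 differences that reversed ran, in the transgene comparison, from −1.23 to 0.99 for Cyp7a1, −0.13 to 0.061 for Cyp7b1, −0.12 to 0.12 for Nr1h4, −0.048 to 0.81 for Nr0b2 and −0.017 to 0.18 for Baat. They ran, in the induction comparison, from −0.034 to 0.067 for Cyp27a1, −0.073 to 0.11 for Cyp7b1 and −0.095 to 0.073 for Abcb11, and in the control comparison from −2.10 to 0.31 for Cyp7a1 and −0.72 to 0.34 for Cyp8b1. Of the other list genes, 123 differences were on the same side of the threshold and 10 passed it. All 10 were by DESeq2 with its own filter, and leaving out a mouse reversed none of 247. DESeq2 adjusted over the genes tested by edgeR stands outside this tally and that of the 10 genes. It called Slc10a1 and Abcc2 in the induction comparison and Abcb4, Abcc2 and Nr5a2 in the control comparison.

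Limits are the 4 or 5 mice a group, against a spread of more than 1 log2 unit for Cyp7a1 and Cyp8b1, and whole liver as the source of RNA. DESeq2 gave no adjusted p for Cyp7b1 and Nr0b2 in the induction comparison. Depth was ample for all 10 genes, the lowest having 158 counts or more in a mouse for Cyp7a1, and a gene at 0 could have up to 0.0829 to 0.173 CPM. Time of day at collection was not tested apart from the Dbp to Arntl ratio.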
